A study of Mus musculus with 20 samples.

Results

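The genes described here are 10 that mark monocytes and macrophages or build their receptors for the constant region of antibodies (Fc receptors): Csf1r, Adgre1 (formerly Emr1), Cd68, Nr4a1, Treml4, Fcgr1, Fcgr2b, Fcgr3, Fcgr4 and Fcer1g. Every non-control probe of the array that carries one of these gene names was taken, which gave 13 probes of 39429 and 10 genes of 31093. The names were chosen with earlier results of these data known. Whole blood of mice was profiled on Agilent one-colour arrays 24 h after X-ray exposure, in 4 groups of 5 male mice, each array holding RNA of 1 mouse. The groups were C57BL/6 wild type (WT) mice sham irradiated (0 Gy), WT mice given 7 Gy to the whole body, and their littermates homozygous for the Il10tm1Cgn allele (B6.129P2-Il10tm1Cgn/J, written Il10-/-) at 0 Gy and at 7 Gy. All mice were 8 to 10 weeks old and came from crosses of heterozygous parents, so the allele was absent or homozygous in every cell from birth. No Cre or transgene is named for any group. Blood was drawn by cardiac puncture into an RNA-preserving solution and depleted of globin RNA. Cells were not sorted, so that each value mixes the RNA of all cells of the blood.

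Monocytes leave the bone marrow as classical cells, which enter inflamed tissue and can become macrophages, and part of them convert in the circulation into non-classical cells that patrol the vessel wall. Csf1r is the receptor for the growth factors CSF1 and IL-34 on which macrophages and non-classical monocytes depend, Adgre1 encodes an adhesion-type receptor at the surface of macrophages, Cd68 a glycoprotein of the lysosome, Nr4a1 a nuclear receptor needed to form non-classical monocytes, and Treml4 a surface receptor typical of those cells. Fcgr1, Fcgr3 and Fcgr4 encode activating receptors for IgG, which signal through the common gamma chain encoded by Fcer1g, whereas Fcgr2b encodes the inhibitory IgG receptor, found on B cells as well as on myeloid cells.

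Promoter sequences are shown for the 6 genes in which the letters searched for below were found, so that each match can be seen in place. RefSeq start sites on build GRCm38.p6 were at hand for 8 of the 10 genes (not Csf1r or Adgre1), and the 250 bases before each start were searched on both strands for 4 sets of letters: GAGGAA, the core of sites for the myeloid factor PU.1; TTCNNNGAA, the form of a gamma-activated site; the paired GAAA form of an interferon-stimulated element (GAAA, any 2 bases, GAAA); and TGACG, a cyclic AMP response half-site. Matches are in capitals, a match on the opposite strand appearing as its reverse complement, and no matches overlapped in these windows. The windows lie at chr1:171018676-171018925 on the plus strand for Fcgr4, chr3:96293970-96294219 on the minus strand for Fcgr1, chr1:171059395-171059644 on the minus strand for 1 of 2 starts of Fcgr3, chr11:69666171-69666420 on the minus strand for Cd68, chr15:101266596-101266845 on the plus strand for Nr4a1, and chr17:48264045-48264294 on the plus strand for Treml4, and are written 5′ to 3′ along each gene.
Fcgr4: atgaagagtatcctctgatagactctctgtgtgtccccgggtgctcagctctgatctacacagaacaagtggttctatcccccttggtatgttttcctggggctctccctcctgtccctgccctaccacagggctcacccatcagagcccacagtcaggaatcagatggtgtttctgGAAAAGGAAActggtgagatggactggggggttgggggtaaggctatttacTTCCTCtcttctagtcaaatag
Fcgr1: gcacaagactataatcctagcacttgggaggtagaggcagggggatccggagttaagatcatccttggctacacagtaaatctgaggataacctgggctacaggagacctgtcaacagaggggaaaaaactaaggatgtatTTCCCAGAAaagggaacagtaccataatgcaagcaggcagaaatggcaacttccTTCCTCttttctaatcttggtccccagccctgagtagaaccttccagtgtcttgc
Fcgr3: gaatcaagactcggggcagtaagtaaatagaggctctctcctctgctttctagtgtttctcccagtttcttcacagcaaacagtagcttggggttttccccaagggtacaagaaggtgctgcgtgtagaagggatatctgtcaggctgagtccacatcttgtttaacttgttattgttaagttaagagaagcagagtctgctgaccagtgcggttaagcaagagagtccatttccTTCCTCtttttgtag
Cd68: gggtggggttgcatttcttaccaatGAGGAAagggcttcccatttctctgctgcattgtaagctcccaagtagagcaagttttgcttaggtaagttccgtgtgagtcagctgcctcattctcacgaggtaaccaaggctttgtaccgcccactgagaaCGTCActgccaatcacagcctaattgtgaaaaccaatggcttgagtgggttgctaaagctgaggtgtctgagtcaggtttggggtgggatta
Nr4a1: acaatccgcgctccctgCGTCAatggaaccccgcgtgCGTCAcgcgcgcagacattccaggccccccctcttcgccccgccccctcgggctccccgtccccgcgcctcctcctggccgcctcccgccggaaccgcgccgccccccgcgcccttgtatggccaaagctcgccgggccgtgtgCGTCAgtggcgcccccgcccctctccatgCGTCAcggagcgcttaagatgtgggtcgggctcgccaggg
Treml4: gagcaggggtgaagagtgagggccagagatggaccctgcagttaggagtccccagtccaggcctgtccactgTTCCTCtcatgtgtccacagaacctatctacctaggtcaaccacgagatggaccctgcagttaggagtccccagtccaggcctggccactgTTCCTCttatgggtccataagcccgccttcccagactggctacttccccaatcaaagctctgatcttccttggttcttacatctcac
GAGGAA was present for 5 of the 8 genes (Cd68, Fcgr1, Fcgr3, Fcgr4 and Treml4) and in 23.3% of 32851 promoter windows of the same length. Fcgr1 alone of the 8 held TTCNNNGAA, which 7.02% of all windows held, and Fcgr4 alone held the interferon-stimulated form, which 2.98% held. TGACG was present 4 times before Nr4a1 and once before Cd68, against at least once in 17.8% of all windows. None of the 4 sets was found before Fcgr2b or Fcer1g. A match is a run of letters in this window and does not show that a factor binds there.

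On the build the array files name (mm9), the probes of Fcgr2b (172890988-172891047), Fcgr3 (172984129-172984188) and Fcer1g (173159794-173159853) all lie on the minus strand of chromosome 1, within 268.866 kb, while the Fcgr4 probe is listed as unmapped. The other probes lie on chromosome 3 at 96086839-96086898 for Fcgr1, on chromosome 11 at 69477775-69477834 for Cd68, on chromosome 15 at 101105071-101105130 for Nr4a1, and on chromosome 17 at 48413947-48414006 for Treml4 and at 57622868-57622927 and 57620350-57620409 for Adgre1. The probe for Fcgr3 is printed because this gene and Fcgr2b are near-identical over much of their outer domains, and how far it also binds Fcgr2b RNA was not tested.
Fcgr3 probe: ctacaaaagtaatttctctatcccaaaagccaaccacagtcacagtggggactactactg

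The level of a gene is the log2 of the processed spot intensity minus the median of its array, so a level of 5 means 32 times the array median. A gene was called changed when its unadjusted P from limma was below 0.001 and its Benjamini-Hochberg false discovery rate (FDR) over all 18581 tested probes was below 10%. All 13 probes of the 10 genes passed the filter on dim spots and 11 also passed a filter on variation; for each gene the brightest probe that passed both stands for it, and the 2 Csf1r probes that failed the second filter are described apart. The share of spots well above background ran from 29.9% to 57.8% over the 20 arrays, and 4 arrays were under 40%: replicates 4 (38.5%) and 5 (29.9%) of the mice labelled WT at 0 Gy, and replicates 3 (34.6%) and 4 (39.0%) of those labelled Il10-/- at 7 Gy. Among the mice labelled WT at 0 Gy, replicate 5 was the lowest array for 7 of the 10 genes and replicate 4 for the other 3. The Il10 probe went against the genotype labels: it was well above background on 0 of 10 arrays labelled WT, at -1.54 ± 0.45 and -1.85 ± 0.61 (SD, n = 5), and on 10 of 10 arrays labelled Il10-/-, at 2.75 ± 0.31 and 2.71 ± 0.62. If it lies outside the altered part of the gene it checks nothing, so the genotypes below are those of the labels and every direction between them rests on these labels. The 5 slides each held 1 array of every group, with the same replicate number.

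Radiation exposure raised Adgre1, the macrophage surface receptor, in the blood of mice of both genotypes. In the mice labelled WT at 0 Gy its levels were 4.88, 4.84, 4.98, 3.87 and 2.42, and at 7 Gy they were 6.61, 6.68, 6.69, 6.91 and 7.97. Those labelled Il10-/- had levels of 5.11, 5.20, 4.89, 5.22 and 5.04 at 0 Gy and 6.38, 6.37, 7.34, 6.17 and 7.51 at 7 Gy. Every exposed array lay above every unexposed one of its genotype, the unexposed mice labelled Il10-/- sat within 0.33 of each other, and replicate 5 was the highest exposed mouse in both genotypes. The rise was 2.77 in WT (standard error, SE, 0.51; 6.84-fold; FDR 0.00236) and 1.66 in Il10-/- (SE 0.29; 3.17-fold; FDR 0.00251). A second Adgre1 probe gave 2.90 (FDR 0.00569) and 1.60 (FDR 0.00403). Within the 5 slides the difference ran from 1.71 to 5.55 in WT and from 0.95 to 2.48 in Il10-/-.

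Of the 10 genes, 2 were called after exposure in WT, Adgre1 and Fcgr4, both higher, beside 6.84% of all 15743 genes called (4.59% higher and 2.25% lower). In Il10-/-, 2 were also called, Adgre1 higher and Nr4a1 lower, beside 9.17% of all genes (3.33% higher and 5.84% lower). The median difference of the 10 genes was 1.25 in WT and 0.60 in Il10-/-, against -0.03 and -0.10 over all genes tested. In each genotype 8 of the 10 genes lay above that median of all genes. Both counts stayed at 2 when each array was left out in turn. Without the 4 weak arrays 4 genes were called in WT, with Adgre1 at 2.07, Fcgr4 at 1.61 and Nr4a1 and Treml4 lower, and the count in Il10-/- stayed at 2. Of all 18581 probes, 2029 were then called in WT (1263 in the main fit) and 1220 in Il10-/- (1700). In Il10-/- the call for Adgre1 was lost under another background correction (normexp; 1.07), under which no probe at all was called in that genotype.

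**Figure D1:**
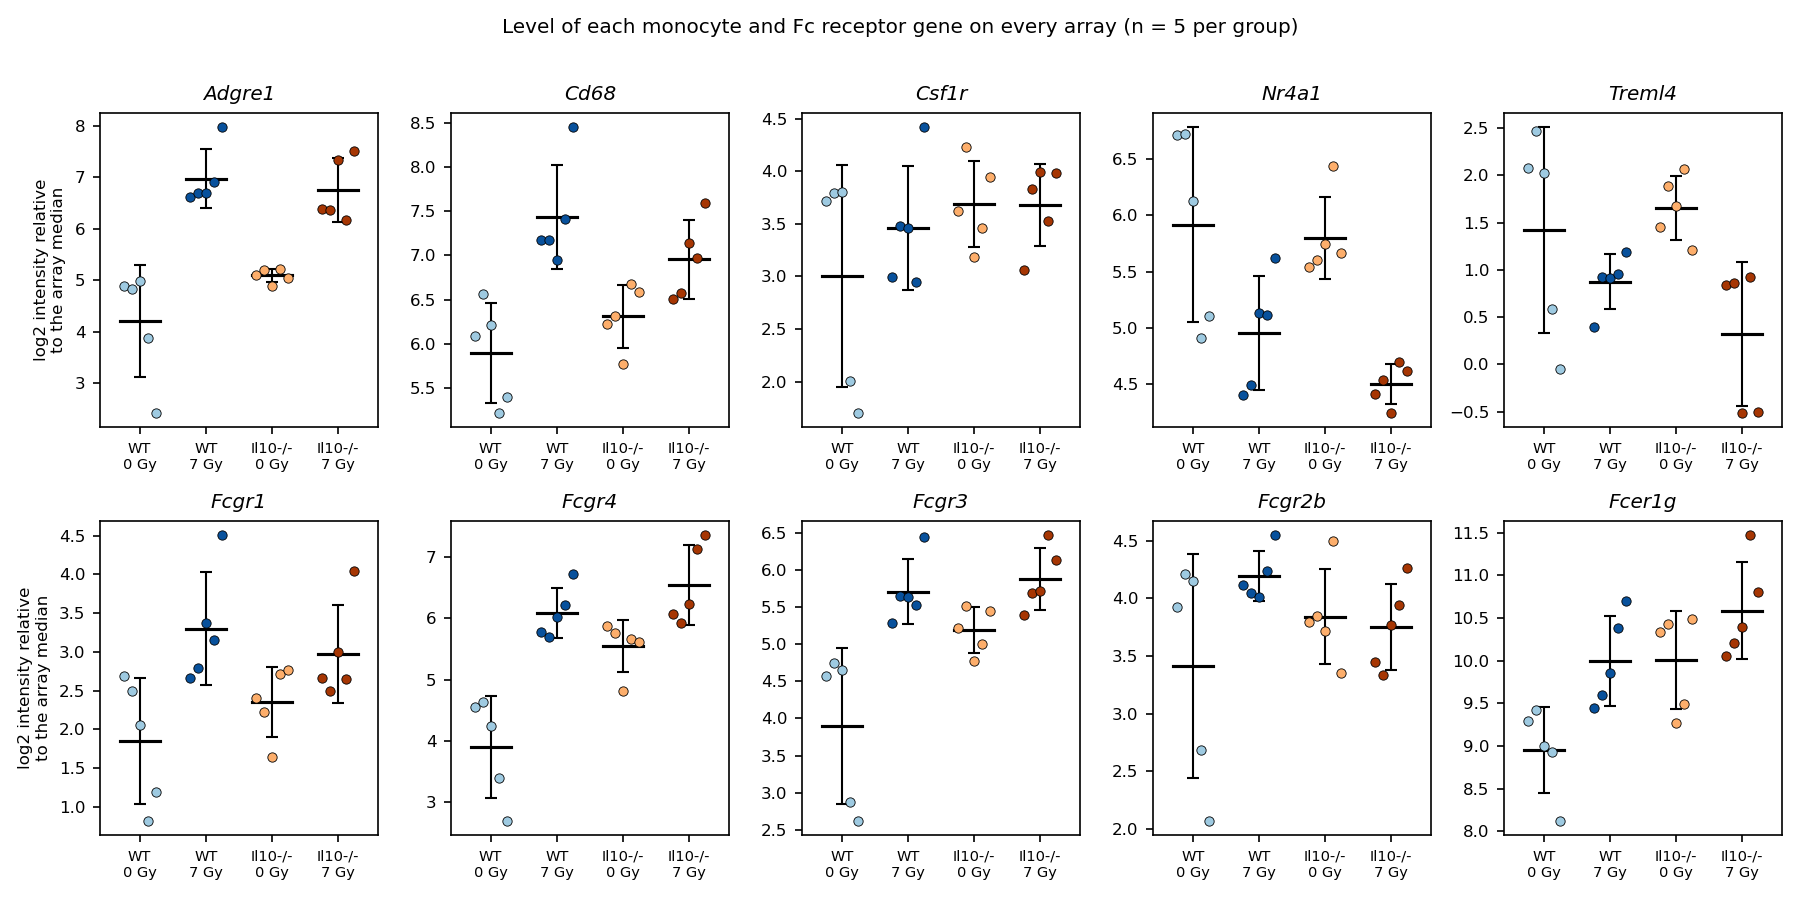
Level of each of the 10 genes on every array, as log2 intensity relative to the array median, in the 4 groups as labelled; points are arrays in replicate order from left to right, bars the mean and whiskers the SD (n = 5). Adgre1 stands higher in both exposed groups without overlap, Nr4a1 and Treml4 stand lower in the exposed Il10-/- group without overlap, and the last 2 points of the WT 0 Gy group are its lowest in every panel.

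Cd68, the lysosomal macrophage protein, was not called in either genotype. Its levels in WT were 6.09, 6.56, 6.21, 5.22 and 5.40 at 0 Gy and 7.18, 7.18, 6.95, 7.41 and 8.45 at 7 Gy. The Il10-/- arrays read 6.22, 6.31, 5.77, 6.67 and 6.59 at 0 Gy and 6.50, 6.57, 7.14, 6.97 and 7.59 at 7 Gy. The exposed and unexposed WT groups did not overlap, whereas those of Il10-/- did, with 3 of 5 exposed mice above all unexposed ones. The difference was 1.54 in WT (95% interval 0.66 to 2.42; FDR 0.0221) and 0.64 in Il10-/- (0.05 to 1.23; FDR 0.113), and it was above 0 on all 5 slides in both. In WT its unadjusted P of 0.00193 missed the threshold of 0.001. The lowest unexposed WT arrays, 5.22 and 5.40, were the weak replicates 4 and 5.

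The level of Csf1r showed no called change in any comparison. Its 3 probes lie on chromosome 18 at 61289398-61289456, 61278661-61278720 and 61290725-61290784 on the same build (mm9). On the probe that stands for it, levels in WT were 3.72, 3.79, 3.81, 2.01 and 1.70 at 0 Gy and 3.00, 3.48, 3.46, 2.95 and 4.42 at 7 Gy, so that the low unexposed replicates 4 and 5 alone lay below the exposed range. In Il10-/- they ran from 3.19 to 4.23 at 0 Gy and from 3.07 to 3.99 at 7 Gy. The difference after exposure was 0.45 in WT (-0.61 to 1.52) and -0.01 in Il10-/- (-0.60 to 0.58). The intervals do not exclude a rise of up to 1.52 in WT or a fall of up to 0.60 in Il10-/-. The brightest Csf1r probe, which failed the variation filter, had means of 8.12 ± 0.50, 8.37 ± 0.40, 8.46 ± 0.25 and 8.52 ± 0.34 in WT at 0 and 7 Gy and Il10-/- at 0 and 7 Gy, and the third probe 3.36 ± 0.54, 3.22 ± 0.35, 3.29 ± 0.19 and 3.28 ± 0.19. Of the 2 ligands of the receptor, Csf1 was tested and not called in any comparison (-0.41 in WT and -0.22 in Il10-/- after exposure), and Il34 did not pass the filters.

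Nr4a1, a nuclear receptor needed to form non-classical monocytes, fell after exposure in the unsorted blood of the mice labelled Il10-/-. Which blood cells this fall came from was not tested. Its levels there were 5.54, 5.60, 5.74, 6.44 and 5.66 at 0 Gy and 4.41, 4.54, 4.25, 4.69 and 4.61 at 7 Gy, with no overlap and a difference within the 5 slides of -1.74 to -1.05. The fall was 1.30 on the log2 scale (SE 0.23; 2.45-fold; FDR 0.00278). In WT the levels were 6.71, 6.73, 6.13, 4.92 and 5.10 at 0 Gy and 4.40, 4.49, 5.14, 5.11 and 5.62 at 7 Gy. Replicates 1 to 3 were lower in the exposed mouse and replicates 4 and 5, whose unexposed arrays are the weak ones, were higher, and the difference was -0.96 (-1.93 to -0.0019; FDR 0.171). Without the 4 weak arrays it was -1.57 (FDR 0.00913) and was called, with only replicates 1 to 3 left of the unexposed WT mice. The Il10-/- call was lost under normexp (-1.17) and when all 4 groups were fitted together (-1.30).

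Treml4, the receptor of non-classical monocytes, was measured at a level close to background and was not called. In Il10-/- its levels were 1.46, 1.88, 1.67, 2.07 and 1.21 at 0 Gy and 0.84, 0.86, -0.51, 0.93 and -0.51 at 7 Gy, well above background on 5 and on 2 of the 5 arrays. The groups did not overlap, and the difference was -1.34 (-2.09 to -0.58; FDR 0.0187; unadjusted P 0.00227), which missed the call; the levels of the 3 dim exposed arrays are limited by background, so the size of the difference is uncertain. In WT its levels were 2.07, 2.47, 2.02, 0.58 and -0.05 at 0 Gy, well above background on 3 arrays, and 0.39, 0.93, 0.92, 0.95 and 1.19 at 7 Gy. Replicates 1 to 3 were again lower and replicates 4 and 5 higher after exposure, with a difference of -0.54 (-1.57 to 0.48; FDR 0.499). Without the 4 weak arrays it was -1.31 (FDR 0.00554) and was called, with only replicates 1 to 3 left of the unexposed WT mice. Over the 20 arrays Nr4a1 was the member most like Treml4, and Treml4 the member most like Nr4a1 (Pearson r 0.841). Nr4a1 and Adgre1 were the members least alike (r -0.435). The arrays share groups and signal strength, and no test was made of these values.

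**Figure D2:**
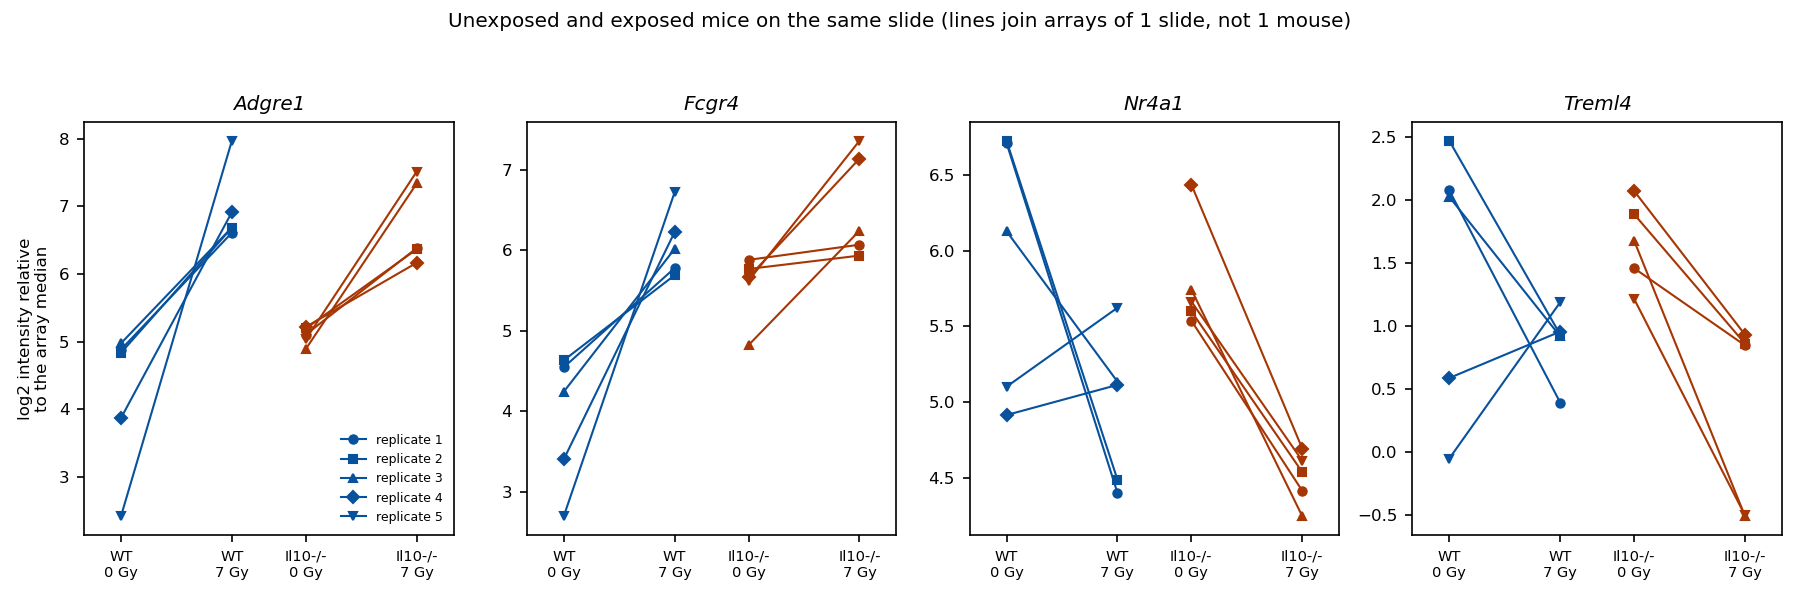
Levels of Adgre1, Fcgr4, Nr4a1 and Treml4, as log2 intensity relative to the array median, for unexposed and exposed mice as labelled; each line joins the 2 arrays of 1 slide, which hold different mice, and each symbol is a replicate number. All lines rise for Adgre1 and Fcgr4 and all fall for Nr4a1 and Treml4 in Il10-/-, while in WT the lines of replicates 4 and 5 rise for Nr4a1 and Treml4.

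Among the activating Fc receptors, Fcgr4 rose in WT. Its levels were 4.54, 4.63, 4.24, 3.40 and 2.69 at 0 Gy, well above background on 4 arrays, and 5.78, 5.69, 6.02, 6.23 and 6.72 at 7 Gy. Levels in Il10-/- were 5.88, 5.77, 4.82, 5.66 and 5.62 at 0 Gy and 6.07, 5.93, 6.24, 7.14 and 7.36 at 7 Gy. Neither pair of groups overlapped, though in Il10-/- the lowest exposed mouse stood only 0.05 above the highest unexposed one. The rise was 2.18 in WT (SE 0.44; 4.54-fold; FDR 0.00431), between 1.06 and 4.03 within the slides. In Il10-/- the difference was 1.00 (0.28 to 1.72; FDR 0.0493; unadjusted P 0.0107), not called, and between 0.17 and 1.74 within the slides.

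Fcgr3 followed Fcgr4 closely, with r of 0.954 over the 20 arrays. Its levels in WT were 4.58, 4.75, 4.64, 2.88 and 2.62 at 0 Gy and 5.29, 5.64, 5.64, 5.52 and 6.44 at 7 Gy, with no overlap. Those in Il10-/- were 5.22, 5.51, 4.77, 5.00 and 5.45 at 0 Gy and 5.39, 5.69, 5.72, 6.46 and 6.13 at 7 Gy, where 4 of 5 exposed mice lay above all unexposed ones. The difference was 1.81 in WT (0.79 to 2.84; FDR 0.0208) and 0.69 in Il10-/- (0.13 to 1.25; FDR 0.0770), neither called, both above 0 on all 5 slides. The WT difference was called under 2 other scalings, at 1.72 with distances from a reference array and 1.73 with the values of the deposited series table. The lowest unexposed WT arrays, 2.88 and 2.62, were the weak replicates 4 and 5. With 1 array left out the WT difference ran from 1.49 (without unexposed replicate 5) to 2.03.

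Fcgr1, the high-affinity IgG receptor, was dim. In WT its levels were 2.69, 2.50, 2.05, 0.82 and 1.19 at 0 Gy and 2.67, 2.79, 3.38, 3.16 and 4.51 at 7 Gy. For Il10-/- the values were 2.40, 2.22, 1.64, 2.71 and 2.76 at 0 Gy and 2.66, 2.50, 3.00, 2.65 and 4.05 at 7 Gy. Replicate 5 was the highest exposed mouse in both genotypes and the groups overlapped in both. The lowest unexposed WT arrays, 0.82 and 1.19, were the weak replicates 4 and 5. The difference was 1.45 in WT (0.44 to 2.46; FDR 0.0511) and 0.62 in Il10-/- (-0.10 to 1.34; FDR 0.198), neither called.

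The shared gamma chain Fcer1g, which the activating receptors need at the surface, moved less than Fcgr4. In WT its levels were 9.29, 9.43, 9.0045, 8.92 and 8.12 at 0 Gy and 9.45, 9.59, 9.85, 10.38 and 10.70 at 7 Gy. Levels in Il10-/- were 10.33, 10.43, 9.27, 9.49 and 10.49 at 0 Gy and 10.05, 10.21, 10.40, 11.47 and 10.81 at 7 Gy. The WT groups did not overlap by a margin of 0.02 and those of Il10-/- did. The lowest unexposed WT arrays, 8.92 and 8.12, were the weak replicates 4 and 5. The difference was 1.04 in WT (0.19 to 1.89; FDR 0.0923) and 0.58 in Il10-/- (-0.16 to 1.33; FDR 0.244), neither called.

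The inhibitory receptor gene Fcgr2b showed the smallest differences of the Fc receptor genes after exposure. Its levels in WT were 3.92, 4.22, 4.16, 2.69 and 2.07 at 0 Gy and 4.12, 4.04, 4.01, 4.24 and 4.55 at 7 Gy, so that apart from the weak arrays the groups lay in the same range. In Il10-/- they ran from 3.36 to 4.50 at 0 Gy and from 3.33 to 4.26 at 7 Gy. The difference was 0.78 in WT (-0.18 to 1.74; FDR 0.277) and -0.09 in Il10-/- (-0.67 to 0.50; FDR 0.837). The WT value was 0.09 without the 4 weak arrays.

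In all, the exposed and unexposed groups did not overlap for 5 of the 10 genes in WT, all higher (Adgre1, Cd68, Fcgr3, Fcgr4 and Fcer1g), beside 11.9% of all genes not overlapping in that direction. In Il10-/- they did not overlap for 2 genes that were higher (Adgre1 and Fcgr4), beside 6.16% of all genes, and 2 that were lower (Nr4a1 and Treml4), beside 11.0%. Each value mixes the RNA of all blood cells and is relative to the median of its array. The number of cells of a type, their RNA per cell and the loss or gain of other cells therefore cannot be told apart.

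**Figure D3:**
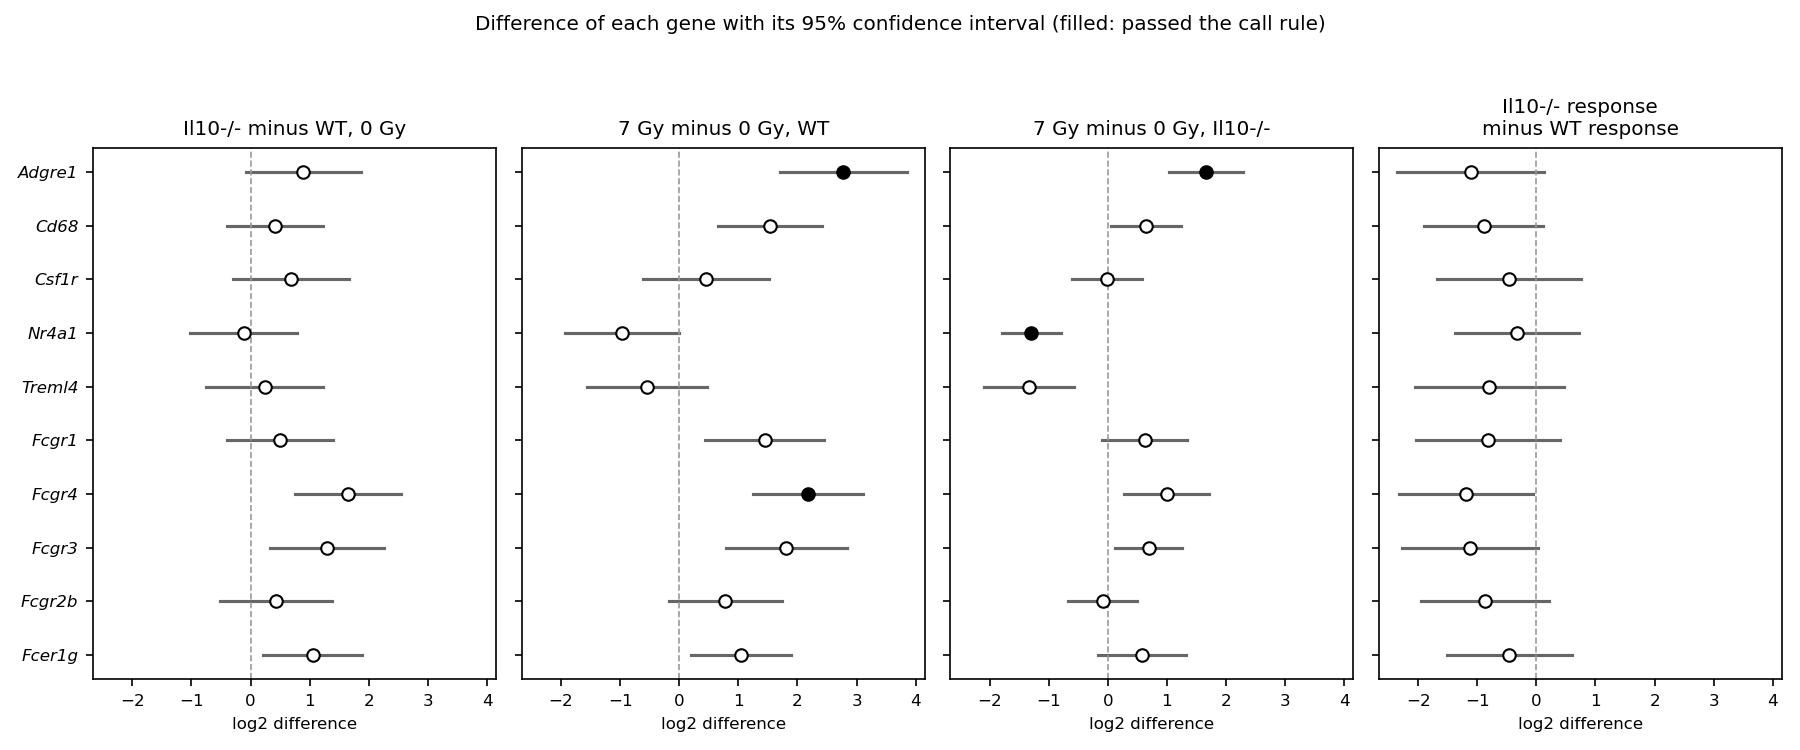
Log2 difference of each gene (points) with its 95% confidence interval (lines) in the 4 comparisons, n = 5 arrays per group as labelled; filled points passed the call rule. Filled points are Adgre1 and Fcgr4 in WT and Adgre1 and Nr4a1 in Il10-/-, and all 10 points of the last panel lie below 0.

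Before exposure, none of the 10 genes was called between the genotypes, beside 0.800% of all genes, all higher in the mice labelled Il10-/-. With limma, 3 of the 10 had an unadjusted P below 0.05, beside 16.3% of all genes, and all 3 were Fc receptor genes higher in Il10-/-. The largest difference was that of Fcgr4 at 1.65 (SE 0.43; 3.13-fold; FDR 0.116), for which all 5 unexposed mice labelled Il10-/- lay above all 5 labelled WT, as the levels given above show. Fcgr3 was higher by 1.30 (SE 0.46; FDR 0.226), also without overlap, and Fcer1g by 1.05 (SE 0.40; FDR 0.247), with 4 of 5 above. Non-overlap in this direction held for 2 of the 10 genes and for 4.12% of all genes. These differences stand beside a median over all genes of 0.35, which over all probes lay between -0.08 and 0.53 under other settings; relative to that median Fcgr4 was higher by 1.30, Fcgr3 by 0.94 and Fcer1g by 0.70. Fcgr4 was called when all 4 groups were fitted together. Without the 4 weak arrays the differences were 1.08 for Fcgr4, 0.53 for Fcgr3 and 0.76 for Fcer1g.

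The other 7 genes differed by less at baseline. Adgre1 was at 0.89 (-0.08 to 1.86), Csf1r at 0.68 (-0.30 to 1.67), Fcgr1 at 0.50 (-0.41 to 1.40), Fcgr2b at 0.43 (-0.52 to 1.38), Cd68 at 0.42 (-0.40 to 1.23), Treml4 at 0.24 (-0.75 to 1.23) and Nr4a1 at -0.12 (-1.03 to 0.79). Each interval spans 0, and those of 6 genes reach beyond 1, so that a level 2-fold higher in Il10-/- could not be told from none for them. The signs of Csf1r, Fcgr1, Fcgr2b and Treml4 turned without the 4 weak arrays, that of Cd68 turned under quantile scaling, and that of Treml4 turned under 3 of the other scalings.

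The responses of the 2 genotypes were compared by the interaction term of a fit over all 20 arrays. None of the 10 genes, and none of 15743, was called by limma in the main fit, though array weights called 334 of 18581 probes. In the main fit 1 of the 10 had an unadjusted P below 0.05, beside 7.06% of all genes. That gene was Fcgr4, whose difference of responses was -1.19 (-2.32 to -0.05; unadjusted P 0.0410; FDR 0.689), and below 0 on each of the 5 slides, from -2.29 to -0.36. Adgre1 was at -1.11 (-2.36 to 0.13), Fcgr3 at -1.12 (-2.28 to 0.04), Cd68 at -0.89 (-1.89 to 0.11) and Nr4a1 at -0.33 (-1.38 to 0.72). All 10 values were below 0, with a median of -0.85 against -0.19 over all genes, and they share the same unexposed WT arrays, including the weak replicates 4 and 5. Without the 4 weak arrays Fcgr4 was at -0.71 and Adgre1 at -0.41, and Csf1r, Nr4a1 and Treml4 were above 0.

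Ordered by mean, the group labelled WT at 0 Gy was the lowest of the 4 for 8 of the genes, Nr4a1 and Treml4 being the exceptions, for which the exposed Il10-/- group was lowest. For Fcgr4 the order was WT at 0 Gy (3.90 ± 0.83), Il10-/- at 0 Gy (5.55 ± 0.42), WT at 7 Gy (6.09 ± 0.41) and Il10-/- at 7 Gy (6.55 ± 0.65), and Fcgr3 had the same order. In both, the ranges of neighbouring groups overlapped except those of the lowest and the next. For Adgre1 it was WT at 0 Gy (4.198 ± 1.09), Il10-/- at 0 Gy (5.09 ± 0.13), Il10-/- at 7 Gy (6.75 ± 0.62) and WT at 7 Gy (6.97 ± 0.57), with a break in the ranges between unexposed and exposed groups. For Fcer1g the only break was between WT at 0 Gy (8.95 ± 0.51) and the next, WT at 7 Gy (9.99 ± 0.53). For Cd68, Csf1r, Nr4a1, Treml4, Fcgr1 and Fcgr2b all neighbouring groups overlapped.

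Other genes of the same cells did not move as 1 group. Of 12 tested genes that mark non-classical monocytes besides Nr4a1 and Treml4, 3 were called after exposure in WT and 3 in Il10-/-. The WT count was 1 without replicate 1 or 2 of the unexposed mice, 1 under normexp and 7 under array weights. Cx3cr1, the fractalkine receptor of these cells, fell by 2.29 in WT (FDR 0.00628) and by 3.14 in Il10-/- (FDR 1.06e-05). Pou2f2, a transcription factor also used by B cells, fell by 2.00 and 2.01, Cd36, a scavenger receptor, fell by 2.47 in Il10-/- and Fabp4, a fatty acid carrier also made by macrophages and fat cells, rose by 2.70 in WT. The list's median was -0.36 in WT and -0.51 in Il10-/-. Of 11 tested genes of classical monocytes, 3 rose and 1 fell in WT and 3 fell in Il10-/-. Among them Mgst1, a glutathione transferase, rose by 3.48 and the endotoxin co-receptor Cd14 by 2.79 in WT, and the chitinase-like gene Chil3 fell by 2.63 in WT and by 3.91 in Il10-/-, where the chemokine receptor Ccr2 also fell, by 1.39. The list's median was 0.02 and -0.10. Of 17 tested genes shared by myeloid cells, 2 rose and 1 fell in WT (median 0.83) and 1 fell in Il10-/- (median 0.25). Cebpa rose by 2.37 in WT and Irf8 was lower at -1.78 in WT and -2.02 in Il10-/-; both encode transcription factors of the monocyte lineage. The WT count of 3 was 1 without WT 0 Gy replicate 4 and 0 under normexp.

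The downstream and related genes of the Fc receptors were also read as lists. Of 27 tested signaling genes of Fc receptors, among them the kinase Syk, the adaptor Tyrobp and the phosphatase Inpp5d, 0 were called by limma in any of the 4 comparisons, and 7, 3, 5 and 0 had an unadjusted P below 0.05 at baseline, in WT, in Il10-/- and in the interaction. Under array weighting 3, 6 and 7 were called in the first 3 of these. Their median difference was 0.78 at baseline, 0.03 in WT and -0.15 in Il10-/-, against 0.35, -0.03 and -0.10 over all genes. Of 11 tested genes for other Fc receptors and Fc-binding proteins, 4 were called in WT and 3 in Il10-/-. Fcer2a, Fcmr and Fcrla, which are expressed by B cells, fell by 5.09, 4.69 and 3.71 in WT and by 4.34, 5.36 and 4.41 in Il10-/-, and Fcgrt, the neonatal Fc receptor that recycles IgG in macrophages and endothelium, rose by 2.29 in WT (FDR 0.00687) and was at 0.87 in Il10-/- (FDR 0.0521). Of 13 tested immediate-early and Nr4a genes, 0 were called by limma at baseline and in WT (3 with an unadjusted P below 0.05 in each), and 2 in Il10-/- (0 without the 4 weak arrays and 0 to 3 with 1 array left out), with Atf3 higher by 1.21 and Dusp2 lower at -1.47, while Nr4a2, a relative of Nr4a1, was at -0.25 in WT and 1.18 in Il10-/- and was not called.

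**Figure D4:**
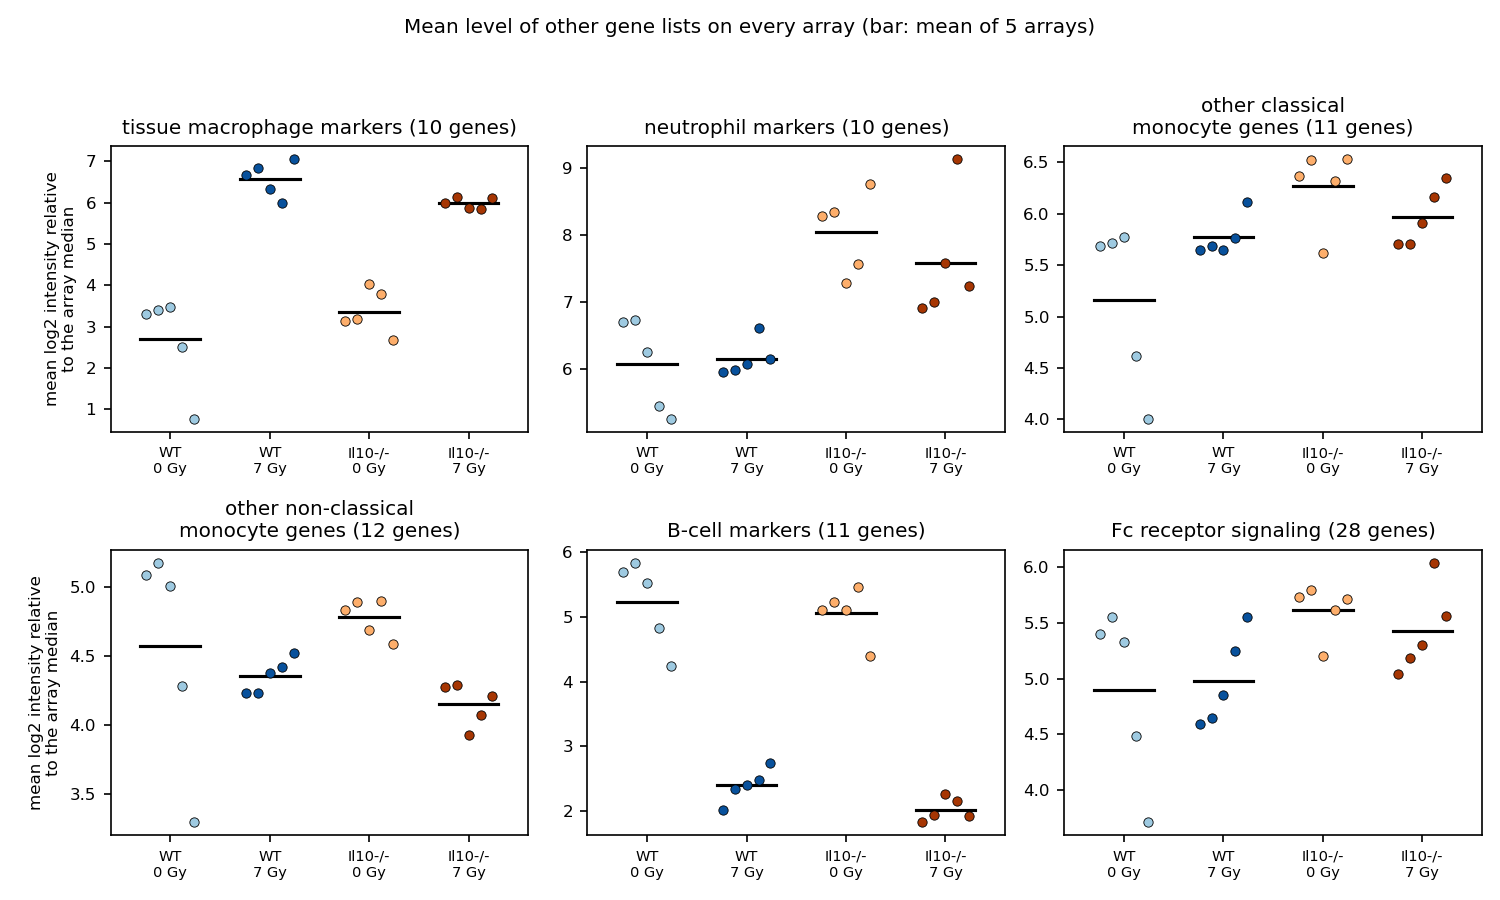
Mean level of 6 other gene lists on every array, as log2 intensity relative to the array median, in the 4 groups as labelled; points are arrays in replicate order, bars the mean of 5. The tissue macrophage list stands between 5.86 and 7.05 in the exposed groups and between 0.78 and 4.03 in the unexposed ones, and the B-cell list stands lower in all exposed mice.

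Markers of other cells moved in both directions. Of 10 markers of tissue macrophages, 9 rose in WT (median 4.24) and 8 in Il10-/- (median 2.69), led by Marco, a scavenger receptor, at 5.53 and 3.90, and Folr2, a folate receptor, at 4.48 and 3.83. The mean level of the list ran from 0.78 to 3.48 in WT at 0 Gy, 6.00 to 7.05 in WT at 7 Gy, 2.69 to 4.03 in Il10-/- at 0 Gy and 5.86 to 6.14 in Il10-/- at 7 Gy. These cells also express Adgre1, Cd68, Csf1r, Fcgr1, Fcgr3 and Fcgr4, and the part of such RNA in the rises of Adgre1 and Fcgr4 was not tested. Of 10 tested liver genes, 6 rose in WT (median 7.28), 2 were higher at baseline in Il10-/- (median 4.21) and 0 were called by limma in the Il10-/- response (0 also at an unadjusted P below 0.05, but 9 under array weights), and of 7 heart muscle genes 5 rose in Il10-/- (median 5.27; 1 to 7 with an array left out) and 0 were called by limma in WT (median 3.36; 4 at an unadjusted P below 0.05). The mean of the liver list ran from -0.48 to 1.34 in WT at 0 Gy and from 1.95 to 10.46 in WT at 7 Gy. In Il10-/- it was 1.60, 1.67, 7.46, 8.74 and 1.46 at 0 Gy and 8.56, 8.64, 1.35, 7.44 and 4.04 at 7 Gy, so that replicates 3 and 4 alone stood high before exposure, and the baseline count ran from 0 (without replicate 3 of these, or replicate 4 or 5 of WT at 0 Gy) to 5 with an array left out. The heart list stood at 6.55, 6.54, 3.63, 0.22 and 0.21 in WT at 7 Gy and from 1.46 to 6.38 in Il10-/- at 7 Gy. Once the weak arrays were left out, 0 liver genes were called in any of these and 1 heart muscle gene in Il10-/-. Their part in the results was not tested. Of 10 tested B-cell markers 9 fell in both genotypes (medians -2.90 and -3.13), with list means of 4.25 to 5.83 and 4.39 to 5.45 in the unexposed groups and 2.02 to 2.75 and 1.83 to 2.27 in the exposed ones. Under normexp the B-cell count was 1 in WT and 0 in Il10-/-. B cells express Fcgr2b, whose own differences of 0.78 in WT and -0.09 in Il10-/- did not follow that fall. Of the other blood cells, 4 of 7 tested erythroid markers fell in each genotype and 1 rose in WT, 2 of 9 T-cell markers (Cd8a and Tcf7) fell in both, and of 7 dendritic cell markers Bst2 rose and Flt3 fell in both, although the WT count of 2 was 1 in 7 of 10 fits with an array left out. Of 8 NK-cell and 7 platelet markers 0 were called by limma in either response, with 2 and 5 of them at an unadjusted P below 0.05 in each; quantile scaling and array weights each called 4 platelet markers in WT, and array weights 1 NK-cell marker in Il10-/-.

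At baseline, 6 of 10 tested neutrophil markers were higher in the mice labelled Il10-/- (median 1.95 against 0.35 over all genes), led by Retnlg at 2.88 and Mmp8 at 2.77. The mean of that list ran from 5.26 to 6.74 in WT and from 7.29 to 8.77 in Il10-/- at 0 Gy, without overlap, from 5.95 to 6.62 in WT at 7 Gy and from 6.92 to 9.14 in Il10-/- at 7 Gy. Neutrophils express Fcgr3, Fcgr4 and Fcer1g, and the part of this list in the baseline values of these genes was not tested. Platelet markers also stood higher at baseline, with a median of 1.02 over 7 genes (0.69 to 1.15; 0 called by limma, 0 at an unadjusted P below 0.05, 7 under array weights). Their mean was 10.70, 10.82, 8.42, 8.03 and 10.39 in Il10-/- at 0 Gy and 7.56 to 9.21 in WT at 0 Gy. Fcer1g, which platelets also express, was likewise higher in replicates 1, 2 and 5 of that Il10-/- group than in replicates 3 and 4. The same split held for the neutrophil list (7.29 and 7.57 in replicates 3 and 4, 8.29 to 8.77 in the others). It also held for the erythroid list (6.97 and 6.75 against 8.04 to 8.25), and the liver list had the reverse. The part of platelet RNA in the value of Fcer1g was not tested. Of the classical monocyte genes 3 were also higher at baseline, Chil3 by 2.65, Mgst1 by 2.46 and Cd14 by 2.23, and of the shared myeloid genes Cd33 by 1.73. With the weak arrays left out 0 neutrophil, classical monocyte or shared myeloid genes were called at baseline, and under quantile scaling 0 neutrophil markers were. These 2 settings called few probes of any kind at baseline, 20 of 18581 and 25 of 17085, against 157 in the main fit.

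The 2 genes whose levels were most like those of each member were taken over all 15743 genes and 20 arrays, by Pearson r, as a description. For Adgre1 they were Fabp7 (0.990) and Mst1r (0.988), for Cd68 Renbp (0.965) and Fam129b (0.947), for Csf1r Ppp2r1a (0.944) and Cybb (0.937), and for Nr4a1 Fgd2 (0.942) and Rnase6 (0.936). For Treml4 they were Ing5 (0.922) and BC002059 (0.917), and for Fcgr1 AI607873 (0.961) and Cd68 (0.937). For Fcgr4 they were Irgm2 (0.977) and Cd14 (0.974), for Fcgr3 Sdf4 (0.975) and Lxn (0.972), for Fcgr2b Alg1 (0.940) and Lat2 (0.910), and for Fcer1g Capzb (0.972) and Cd44 (0.972). Arrays share group, slide and signal strength, so these values do not come from independent points.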

How the data were processed

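The authors hybridised Cy3-labelled RNA of each mouse to Agilent one-colour arrays and scanned them with Agilent Feature Extraction (10.7 in the submitters' processing notes, 12.0.2.2 in the file headers). The deposited files hold background-subtracted spot intensity on a linear scale, and the deposited series table holds the authors' log2 values. From the 20 scanner files, repeated spots of a probe were averaged, log2 was taken and the median of each array subtracted, after the study's methods. A probe was dropped where 25% or more of its arrays carried a mark for an uneven spot or a signal not significantly over background, and otherwise had to stand at least 1.5-fold from its own median on at least 20% of arrays. Comparisons were fitted within the 2 groups concerned, and the interaction over all 4, with limma 3.58.1 (R 4.3.3), and a call needed P below 0.001 and a rate below 10%; 95% intervals are those of the fit. The script was tested on simulated data.

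The 10 members, 17 other lists and the named genes (every member, its 2 most alike genes, and up to 2 called genes with the largest rise and fall from each list per comparison) were chosen with earlier results of these data known. Columns of no mapped sample numbered 0. Within every group, replicates 1 and 2 differed least. The robust SD of their difference was 0.23 to 0.34 over the 4 groups, against 0.41 to 1.39 for all other pairs. They were kept as separate mice, as the labels have them, and every SE, P and non-overlap count rests on this. Their average was an alternative chosen after seeing the data, as was leaving out the 4 weak arrays. With the average, called probes were 141 at baseline (157 in the main fit), 754 in WT (1263) and 815 in Il10-/- (1700). Averaging also leaves fewer arrays per group, so these counts cannot show whether replicates 1 and 2 are independent. Replicate numbers equal slides, and same-slide deviations from the group means correlated from -0.66 to 0.68, so the slide block was an alternative. Other scalings, background correction, filters, array weights and leaving out arrays were also tried. The number of arrays and the weak signal of 4 of them limit the precision. Of the shared myeloid list, 1 gene is not reported here.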

Additional observations from a re-analysis of the deposited data

Results flagged for a closer look

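Among 40 sets of 5 arrays (10 genes in 4 groups), 3 held an array standing apart from the others by Dixon's criterion; chance alone marks about 1 in 20 such sets. Fcgr4 was lowest at 4.82 in replicate 3 of the unexposed mice labelled Il10-/-, where the next array was at 5.62. Nr4a1 was highest at 6.44 in replicate 4 of the same group, the next being 5.74. Adgre1 was highest at 7.97 in replicate 5 of the exposed mice labelled WT, the next being 6.91.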

How the results depend on the processing

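Of 990 gene-level values under other settings, 35 changed sign (26 under another setting, 9 with an array left out), 17 gained a call and 3 lost one; the cause was not tested. The count of called members at baseline (0) was 1 with all groups in 1 fit and 3 under array weights. Beside these, 201 and 3218 of 18581 probes were called (157 in the main fit). In WT (2) the member count was 4 with all groups in 1 fit and 5 under array weights. It was 4 with a rate below 5% alone and 4 without the weak arrays. In the same order 2119, 3759, 2711 and 2029 of 18581 probes were called in WT (1263 in the main fit). In Il10-/- (2) the member count was 0 under normexp, 1 with all groups in 1 fit and 4 with a rate below 5% alone. There 0, 1210 and 4050 probes were called (1700 in the main fit). Leaving out single arrays gave 0 to 0, 2 to 2, 2 to 2 and, for the interaction, 0 to 0. Treml4 had no value under normexp, where it did not pass the filters.

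The slide, which is the replicate number, was fitted as a block because same-slide arrays might pair; it changed no count of called members (0, 2, 2 and 0), and Adgre1 stayed at 2.77 and 1.66.

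At baseline Treml4 was at -0.11 with the 75th percentile, -0.043 with distances from a reference array, -0.18 in the series table, -0.61 under array weights, -0.53 without the weak arrays, and from -0.13 (without WT 0 Gy replicate 5) to 0.50 with an array left out. Array weights turned Fcgr1 (-0.14) and Fcgr2b (-0.21), and omission of the weak arrays turned Fcgr1 (-0.0663), Fcgr2b (-0.26) and Csf1r (-0.0834). Cd68 was at -0.0682 under quantile scaling, and Nr4a1 at 0.14 with replicates 1 and 2 averaged; with an array left out Nr4a1 ran from -0.37 to 0.0822.

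In the WT response Csf1r was at -0.23 under array weights and -0.31 without the weak arrays. In the Il10-/- response Csf1r was at 0.0191 with the 75th percentile, 0.14 with the reference array, 0.0533 under quantile scaling, 0.13 in the series table and 0.11 with replicates averaged, and from -0.13 to 0.14 with an array left out, while Fcgr2b ran from -0.22 to 0.0750 with an array left out. In the interaction Nr4a1 was at 0.11 under quantile scaling, and array weights and omission of the weak arrays gave 0.43 and 0.295 for Nr4a1, 0.0272 and 0.25 for Csf1r, and 0.35 and 0.0522 for Treml4.

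Among all tested probes, the WT calls split into 832 higher and 431 lower, 705 and 693 under quantile scaling, 795 and 761 with the 75th percentile, 258 and 4 under normexp, and 582 and 1447 without the weak arrays. Array weights called 3218, 3759 and 5476 probes at baseline, in WT and in Il10-/-, against 157, 1263 and 1700. For the interaction they called 334 probes, 56 higher and 278 lower, against 0. The signal of weak arrays over background limits the lowest levels, those of Treml4 above all.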
